A study of Mus musculus with 22 samples.

Results

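Bromosporine and OICR were compared directly as 2 of the compounds given to mouse E14 embryonic stem cells, a line of pluripotent cells derived from the early embryo. The libraries were chosen by their treatment labels, which put 2 libraries in each group and so gave 4 libraries of the 22 in the series. RNA from the cells was enriched for polyadenylated transcripts and sequenced. The other 18 libraries came from 9 groups of the same line with 2 libraries each, treated with Chaetocin, CPTH2, DZNep, Garcinol, IOX1, MS023, UNC0379 or Valproate, or carrying the label NC, which names no compound. The labels give neither dose nor exposure time for any compound, so whether the doses were matched is not known. OICR is given here as the labels spell it, since they give no fuller name. The sources used here do not say whether replicates were separate cultures, so the p-values below measure the spread between these samples, which may be technical. Values are normalized read counts that were brought to the same distribution in every library, and every library had a median of 409 over the 18487 genes of the table. They carry no information on depth, total RNA or a shift shared by most genes.

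Bromodomains are protein folds that bind acetylated lysine on histones, and Bromosporine binds the bromodomains of many proteins. Proteins such as BRD2 and BRD3 use these folds to bring the elongation factor P-TEFb to acetylated promoters and enhancers, where it releases paused RNA polymerase II. In embryonic stem cells the same machinery serves both the pluripotency genes and genes of single lineages that are held at a low level.

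The genes that separated the compounds lay almost all on one side, lower with Bromosporine than with OICR. Of 17275 genes tested, 240 (1.39%) were called, meaning here and below that limma gave an adjusted p (Benjamini-Hochberg) below 0.05 and that the fold exceeded 2. Of these, 223 (1.29% of genes tested) were lower and 17 (0.0984%) were higher with Bromosporine. The median difference of the 223 was -1.90 on the log2(value + 1) scale, on which all differences below are given, against a median of 0.02 over all genes tested. Both Bromosporine libraries were below both OICR libraries for all 223, where 20.4% of all genes tested showed that order. All 17 higher genes had the reverse order, against 21.2% of genes tested. The genes were called on these same libraries, so their order largely restates the calls and is no separate support.

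The wider series placed most of these differences on the Bromosporine side. For 218 of the 223 lower genes, the Bromosporine mean was further than the OICR mean from the mean of the other 9 groups. The share of all genes tested with that order was not computed, so this count has no baseline. For 146 of them, both Bromosporine libraries lay below every one of the other 18 libraries, which was so for 3.24% of all genes tested. Both OICR libraries lay above the other 18 for 2 of the 223 (1.04% of genes tested). The 17 higher genes were more mixed, with Bromosporine further from the other groups for 11 and OICR further for 6, again without a baseline. Among them, both Bromosporine libraries were above the other 18 for 3 genes (3.73% of genes tested), and both OICR libraries were below the other 18 for 4 genes (0.758% of genes tested).

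Set against the mean of the other 9 groups, Bromosporine had 785 genes called lower (4.54%) and 165 called higher (0.955%). OICR had 55 called lower (0.318%) and 12 called higher (0.0695%). The pair of contrasts shares its 18 reference libraries. Genes called lower in both numbered 34 (0.197%), genes called higher in both numbered 5 (0.0289%), and 0 genes were called in opposite directions. Of the genes called lower or higher in both, 1 gene, Serpinh1, was also called in the direct comparison. The plot of both contrasts shows the lower genes as a column near 0 on the OICR axis.

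**Figure D1:**
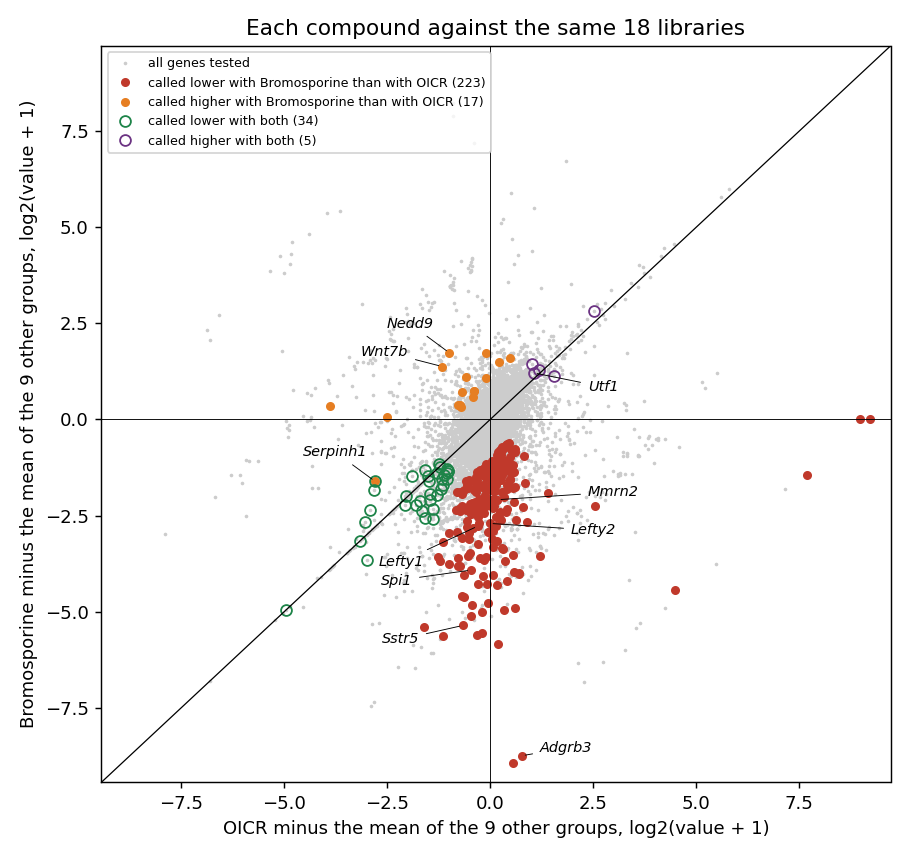
Each point is 1 gene, with its difference between OICR and the mean of the 9 other groups on the x axis and that of Bromosporine on the y axis, both on the log2(value + 1) scale. The 223 genes called lower with Bromosporine than with OICR (red) mostly lie near 0 for OICR and well below 0 for Bromosporine, and Serpinh1 is the point that is both an open green circle (34 genes lower with both) and an orange dot (17 genes higher with Bromosporine).

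How far 1 library decided these counts was measured by leaving out each of the 4 in turn. Without Bromosporine replicate 1, 116 genes were lower and 3 higher, and without Bromosporine replicate 2 the counts were 241 and 21. Without OICR replicate 1 they were 85 and 22, and without OICR replicate 2 they were 73 and 6. All 240 genes kept their sign in every one of these fits, which was fixed in advance, since the libraries of the compounds did not overlap for any of them. In all 4 fits 58 genes were still called, 56 lower and 2 higher, and 56 of the 240 were called in none. With only the 4 libraries in the fit, 43 genes were lower and 20 higher, and 20 of the 240 stayed called. That fit lost the calls of Kirrel2, Nphs1, Abcb1b, Sstr5, Slc34a3, Lrp1, Spi1, Clec4a1, Snx20 and Etv2, all described below. It also lost those of Mmrn2, Itgb4, Ifitm3, Trim21, Sp100 and Chd3. In the fits that left out a library, the lone library of a group is assumed to vary like the other groups. Genes at 0 were more frequent with Bromosporine, at 1655 and 1707 of the genes in the table, than with OICR, at 1381 and 1429, or in the other libraries, at 1065 to 1420. The part of this in the count of lower genes was not tested, but 42 of the 223 had a 0 in at least 1 of the 4 libraries and 31 were at 0 in both Bromosporine libraries.

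Both Lefty genes were lower with Bromosporine than with OICR. Lefty1 and Lefty2 encode secreted antagonists of Nodal, a TGF-beta family ligand that patterns the early embryo, and both are induced by Nodal signalling itself. Lefty2 (mm10 chr1:180893108-180899103, plus strand) had 175 and 449 under Bromosporine, and 2520 and 1298 under OICR. The OICR libraries lay around the median of the other 18 libraries (2279.5), which ran from 241 to 4486, and 1 Bromosporine library lay below that range. Lefty2 was 6.43-fold lower with Bromosporine (log2 difference -2.68, SE 0.43, limma adjusted p 0.00579). Lefty1 (mm10 chr1:180935022-180938400, plus strand) was at 48 and 167 against 588 and 430, with 669 and 1001 in NC, and was 5.55-fold lower (-2.47, SE 0.48, limma adjusted p 0.0188). The libraries of the compounds did not overlap for either gene, while replicate 1 of Bromosporine was the lower one for both. DZNep was as low, at 92 and 113 for Lefty1 and 320 and 241 for Lefty2.

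Those genes share 25% (Lefty1) and 17.6% (Lefty2) of the 31-base stretches of their longest transcripts with other genes, so reads could be exchanged between them. The call of Lefty1 was lost without Bromosporine replicate 1 (-1.58), OICR replicate 1 (-2.25) or OICR replicate 2 (-2.70). That of Lefty2 was lost without Bromosporine replicate 1 (-2.01) or OICR replicate 1 (-2.21). Without Bromosporine replicate 2 both were called (-3.36 each). A list of 21 tested Nodal pathway genes, written after values had been seen, held no other called gene (2 lower, 0 higher, median -0.06). Nodal itself had 838 and 1551 under Bromosporine, and 2263 and 2538 under OICR (-1.07, SE 0.43, limma adjusted p 0.303), so that its libraries did not overlap but the test was not passed. Nodal was called when the replicate number was added to the fit, though the labels do not say what libraries of the same number share. Tdgf1, the co-receptor of Nodal, was at 19257 and 15030 against 23897 and 18010, which overlapped. Within number 1 and number 2 it was lower with Bromosporine (-0.31 and -0.26), and it was not called with or without the replicate number in the fit. Foxh1, the DNA-binding partner of the pathway's SMAD proteins, differed by -0.45 (SE 0.12, limma adjusted p 0.0864).

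A neighbour of Lefty1 was also lower. Tmem63a, which encodes a mechanically gated ion channel, lies 3944 bases from Lefty1 and was at 88 and 75 with Bromosporine against 364 and 327 with OICR (-2.07, SE 0.17, limma adjusted p 9.55e-05). Its Bromosporine libraries lay below all other 18, which ran from 219 to 1121. Tmem63a was called in every fit that left out 1 library.

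Called genes lay near each other at several other places. Of 219 lower genes with 1 position in GENCODE M21, 36 (16.4%) had another lower gene within 100 kb, against 4.89% of all tested genes with a position. This is a description, and neighbours that are copies of each other count in it. The pairs described here, Tmem63a and Nphs1os included, were chosen after values were seen. The 25 such pairs included 7 within the Rhox cluster of the X chromosome. The other 18 included Abcb1a and Abcb1b on chromosome 5, Bhmt and Dmgdh on chromosome 13, Sp100 and Sp110 on chromosome 1, and Spi1 and Rapsn on chromosome 2. Among higher genes, 0 of 17 had another higher gene within 100 kb. The share of all tested genes near a higher gene was not computed. With so few higher genes, this 0 gives no contrast with the lower genes.

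Kirrel2 and Nphs1 form a head-to-head pair on chromosome 7, with starts 625 bases apart on opposite strands. Nphs1 encodes nephrin and Kirrel2 a relative of it, both adhesion proteins known from the filtration barrier of the kidney. Kirrel2 (mm10 chr7:30447534-30457690, minus strand) had 102 and 247 under Bromosporine, and 1010 and 1108 under OICR (6.63-fold, log2 difference -2.73, SE 0.38, limma adjusted p 0.00273). Nphs1 (mm10 chr7:30458315-30487223, plus strand) was at 171 and 382 against 1317 and 1326 (5.15-fold, -2.37, SE 0.34, limma adjusted p 0.00308). Both calls held without any 1 of the 4 libraries, though the Kirrel2 difference was -2.09 without Bromosporine replicate 1 and -3.36 without Bromosporine replicate 2. The Bromosporine values were not the lowest of the series for Kirrel2, since Valproate had 72 and 93, and NC had 1798 and 1449. For Nphs1, DZNep had 134 and 292 and Valproate 191 and 205. Nphs1os, an antisense transcript inside Nphs1, followed at 13 and 33 against 83 and 71 (-1.83, SE 0.38, limma adjusted p 0.0268), but the counting is not stated to use strand, so its reads cannot be told apart from those of Nphs1. Its call was lost without Bromosporine replicate 1 (-1.19), OICR replicate 1 (-1.72) or OICR replicate 2 (-1.94).

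Both genes for drug efflux pumps of the ABCB1 type were lower with Bromosporine. Abcb1b had 375 and 471 under Bromosporine, and 1480 and 1450 under OICR (3.48-fold, log2 difference -1.80, SE 0.16, limma adjusted p 9.55e-05), and its call held without any 1 library. Abcb1a was at 280 and 407 against 1199 and 1412 (-1.94, SE 0.29, limma adjusted p 0.0037), a call lost without Bromosporine replicate 1 (-1.67) or OICR replicate 2 (-1.83). For both genes the Bromosporine libraries lay below all 18 others. Abcb1a shares 24.8% and Abcb1b 27% of the 31-base stretches of its longest transcript with other genes, so their counts are not fully separate.

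Promoter sequences are shown for Kirrel2 and Abcb1b, each a member of a neighbouring pair that was lower, and for Serpinh1, the gene lower with both compounds and also different between them (described further on). Each covers 250 bases before to 50 bases after the start site in RefSeq, build GRCm38.p6, written 5′ to 3′ on the strand of the gene. Capitals mark matches, on either strand, to the GC box GGGCGG or the CCAAT box CCAAT. Kirrel2 lies at chr7:30457466-30457765 (minus), Abcb1b at chr5:8797897-8798196 (plus) and Serpinh1 at chr7:99353190-99353489 (minus).
Kirrel2: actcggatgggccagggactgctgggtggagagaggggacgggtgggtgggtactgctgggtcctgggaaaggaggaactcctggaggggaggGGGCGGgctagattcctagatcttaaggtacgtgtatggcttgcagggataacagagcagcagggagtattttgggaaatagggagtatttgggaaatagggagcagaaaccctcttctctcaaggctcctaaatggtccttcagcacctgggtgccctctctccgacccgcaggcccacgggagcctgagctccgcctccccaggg
Abcb1b: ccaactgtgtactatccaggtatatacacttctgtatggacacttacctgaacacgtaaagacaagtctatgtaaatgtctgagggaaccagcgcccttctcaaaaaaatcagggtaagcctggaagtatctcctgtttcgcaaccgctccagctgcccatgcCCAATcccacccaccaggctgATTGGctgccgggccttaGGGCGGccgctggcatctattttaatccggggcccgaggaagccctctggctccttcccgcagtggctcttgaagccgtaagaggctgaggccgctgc
Serpinh1: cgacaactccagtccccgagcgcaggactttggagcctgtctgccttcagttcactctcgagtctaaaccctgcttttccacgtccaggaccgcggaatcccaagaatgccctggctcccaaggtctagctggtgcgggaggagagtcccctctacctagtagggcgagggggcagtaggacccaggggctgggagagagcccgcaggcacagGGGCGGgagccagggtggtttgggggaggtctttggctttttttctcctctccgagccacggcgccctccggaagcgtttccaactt
Each of the 3 sequences held 1 GC box, and Abcb1b also held 2 CCAAT boxes, 1 on each strand. The search also covered the TATA box TATAAA, which had 0 matches. Of 27025 promoters of this length in the table, 35.9% held a GC box, 37.9% a CCAAT box and 14.2% a TATA box, and the motifs do not overlap each other in these 3. The sequences held 8 (Kirrel2), 12 (Abcb1b) and 16 (Serpinh1) CG dinucleotides, against a median of 7 over the table. A match of letters is a description and not a binding site.

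Among the lower genes were receptors and transporters of the cell surface. Sstr5, a somatostatin receptor, had 1 and 13 under Bromosporine, and 117 and 158 under OICR (25.9-fold, log2 difference -4.69, SE 0.62, limma adjusted p 0.00197). Slc34a3, a sodium-phosphate cotransporter known from the kidney, was at 17 and 14 against 134 and 121 (7.81-fold, -2.97, SE 0.35, limma adjusted p 0.00114). Both genes had Bromosporine libraries below all 18 others and kept their calls without any 1 library, but the Sstr5 difference was -3.29 without Bromosporine replicate 1 and -6.10 without Bromosporine replicate 2. P2rx7, an ATP-gated ion channel, was at 57 and 99 against 623 and 519 (7.48-fold, -2.90, SE 0.60, limma adjusted p 0.027), below a range of 161 to 3848 in the others. Its call was lost without Bromosporine replicate 1 (-2.51), OICR replicate 1 (-2.77) or OICR replicate 2 (-3.03).

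Lrp1, an endocytic receptor of the LDL receptor family, had 1004 and 1206 under Bromosporine, and 3757 and 3629 under OICR (3.35-fold, log2 difference -1.75, SE 0.21, limma adjusted p 0.00114), with 4876 and 3600 in NC. The gene is chosen here for its high values after they were seen, and its call held without any 1 library. Crb2, a Crumbs family protein of apical cell polarity, was at 36 and 28 against 268 and 155 (6.25-fold, -2.64, SE 0.49, limma adjusted p 0.0132). Without OICR replicate 2 it stayed called (-3.04), and without any 1 of the other 3 libraries it did not (-2.25 to -2.82). Nkx2-9, a homeobox transcription factor, was at 3 and 21 against 76 and 161 (-3.57, SE 0.70, limma adjusted p 0.0188). The Nkx2-9 call was lost without Bromosporine replicate 1 (-2.34), OICR replicate 1 (-4.11) or OICR replicate 2 (-3.04), and kept without Bromosporine replicate 2 (-4.80).

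Several genes best known from blood cells were lower with Bromosporine, at low to moderate values except for Laptm5. They were picked after values had been seen, apart from Clec4a1 and Snx20, which the rule of size named, so no count over them is given. Spi1, which encodes the myeloid and B cell transcription factor PU.1, had 5 and 7 under Bromosporine, and 70 and 80 under OICR, with 121 and 106 in NC (10.9-fold, log2 difference -3.45, SE 0.35, limma adjusted p 0.000349). Clec4a1, a C-type lectin of myeloid cells, was at 14 and 16 against 110 and 95 (6.46-fold, -2.69, SE 0.33, limma adjusted p 0.00135). The Spi1 and Clec4a1 values with Bromosporine lay below all 18 other libraries.

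Snx20, a sorting nexin of leukocytes, had 128 and 160 under Bromosporine, and 708 and 763 under OICR (5.11-fold, log2 difference -2.35, SE 0.34, limma adjusted p 0.00308). The calls of Spi1, Clec4a1 and Snx20 held without any 1 library. Laptm5, a lysosomal membrane protein of haematopoietic cells, was at 1853 and 2970 against 5364 and 5646 (-1.23, SE 0.23, limma adjusted p 0.0132), a call lost without Bromosporine replicate 1 (-0.89), OICR replicate 1 (-1.27) or OICR replicate 2 (-1.19). In bulk RNA, fewer cells of a kind and less RNA per cell cannot be told apart. Etv2, a transcription factor of the blood and vessel lineage, was at 4 and 5 against 42 and 38 (-2.90, SE 0.44, limma adjusted p 0.00377), and its call held without any 1 library.

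Matrix and adhesion genes were also among those called lower. Of 32 tested collagen and matrix genes, 3 were called lower (1.29% of all genes) and 0 higher, with a median of -0.17 against 0.02 over all genes. Lama5, a chain of the laminins of embryonic basement membrane, had 5252 and 4436 under Bromosporine, and 11035 and 9086 under OICR, with 5714 and 6412 in NC (2.07-fold, log2 difference -1.05, SE 0.18, limma adjusted p 0.00773). OICR lay toward the upper part of the range of the others (5597 to 13581) and Bromosporine below it. Col1a1, the main collagen of fibroblasts, was at 7 and 6 against 23 and 27 (-1.79, SE 0.34, limma adjusted p 0.0144). Tnc, a matrix glycoprotein, was listed at 0 in both Bromosporine libraries and at 10 and 25 with OICR. The call of Lama5 was lost without Bromosporine replicate 2 (-0.93) or OICR replicate 1 (-0.91), that of Tnc without Bromosporine replicate 1 or OICR replicate 2 or with a pseudocount of 10, and that of Col1a1 without any 1 of the 4 libraries (-1.68 to -1.90).

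Mmrn2, a matrix protein of vessels, lies 676 bases from Sncg, and both were lower. These and Itgb4 were chosen after values were seen. Mmrn2 had 308 and 427 under Bromosporine, and 1579 and 1924 under OICR (4.80-fold, log2 difference -2.26, SE 0.21, limma adjusted p 0.000145), and both Bromosporine libraries were below all 18 others (890 to 2349). Sncg, which encodes gamma-synuclein, was at 30 and 48 against 192 and 151 (-2.14, SE 0.32, limma adjusted p 0.00361). Itgb4, the integrin subunit of hemidesmosomes, was at 187 and 179 against 475 and 520 (-1.44, SE 0.21, limma adjusted p 0.00349). All 3 calls held without any 1 library.

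Of 20 tested p53 target genes, 3 were called lower with Bromosporine than with OICR and 0 higher, where 1.29% and 0.0984% of all genes were. The list's median difference was -0.55, against 0.02 over all genes, and 17 of the 20 had a difference below 0. Phlda3, an inhibitor of AKT, had 1964 and 2305 under Bromosporine, and 3881 and 4984 under OICR, with 2830 and 2623 in NC (-1.05, SE 0.20, limma adjusted p 0.0174). Plk2, a stress-induced kinase, was at 761 and 733 against 1490 and 1802 (-1.13, SE 0.26, limma adjusted p 0.0418). Gdf15, a secreted stress cytokine, was at 561 and 570 against 1140 and 1288, all below NC at 2582 and 1801 (-1.10, SE 0.26, limma adjusted p 0.0462).

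These genes differed in where the compounds stood against the rest. For Phlda3 and Plk2, Bromosporine lay below the range of the other 18 libraries and OICR inside it, while for Gdf15 all 4 lay inside it. Pmaip1, which encodes the death protein NOXA, ran the other way at 164 and 106 against 58 and 70, and was not called (1.04, SE 0.32, limma adjusted p 0.155). With the replicate number in the fit, Pmaip1 was called. Trp73, a p53 relative that was outside the list and chosen after its values were seen, was at 52 and 67 against 259 and 344 (-2.32, SE 0.39, limma adjusted p 0.00793). Phlda3 lost its call without Bromosporine replicate 1 (-0.93) or OICR replicate 2 (-0.87), Plk2 and Gdf15 without any 1 of the 4 libraries (-1.27 to -0.995 and -1.19 to -1.01), and Trp73 without Bromosporine replicate 1 (-2.14) or OICR replicate 2 (-2.11). Plk2 and Gdf15 also lost their calls when the variance prior had no trend, and Gdf15 with a pseudocount of 10.

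Of 18 tested interferon response genes, 1 was called lower (1.29% of all genes) and 0 higher, with a median of -0.53. It was Ifi27, at 9 and 24 under Bromosporine, and 90 and 79 under OICR (log2 difference -2.43, SE 0.44, limma adjusted p 0.013), a call lost without Bromosporine replicate 1 (-1.77), OICR replicate 1 (-2.34) or OICR replicate 2 (-2.52). Outside the list, and chosen after values were seen, Ifitm3, an antiviral membrane protein, was at 846 and 1382 against 3447 and 3460 (3.19-fold, -1.67, SE 0.23, limma adjusted p 0.00253). Trim21, a cytosolic antibody receptor, was at 46 and 65 against 190 and 146 (-1.59, SE 0.22, limma adjusted p 0.00264). Sp100, a nuclear body protein with a bromodomain, was at 94 and 85 against 269 and 257 (-1.55, SE 0.22, limma adjusted p 0.0026). The calls of Ifitm3, Trim21 and Sp100 held without any 1 library. Sp100 was the 1 called gene of 37 tested bromodomain protein genes (1.39% of all genes), which had a median of 0.03.

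Genes of the 2-cell stage, a brief state of the embryo that a small share of embryonic stem cells re-enters, had a low median. Of 22 tested, 1 was called lower in the direct comparison (1.29% of all genes) and 0 higher, with a median of -1.54, 16 below 0. Against the other groups, 13 of the 22 were called lower with Bromosporine (4.54% of all genes) and 1 with OICR (0.318% of all genes), in contrasts that share their reference. Zscan4c was listed at 0 in both Bromosporine libraries and at 14 and 36 with OICR, with 64 and 66 in NC, and was not called between the compounds (limma adjusted p 0.104). With the replicate number in the fit, Zscan4c was called. Zscan4d was listed at 0 in all 4 libraries and at 8 to 184 in the others. The 9 tested Zscan4 genes and copies summed to 0 and 0 with Bromosporine, 32 and 167 with OICR, and 72 to 1189 in the other libraries. For Zscan4c, 91.5% of the 31-base stretches are found in other transcripts too, so values of single copies are uncertain. Of these 9, 6 were called lower with Bromosporine against the other groups and 1 with OICR, and such copies are not independent counts. Sp110, the 1 called gene of the list, was at 0 and 5 against 20 and 18 and lost its call without Bromosporine replicate 1, OICR replicate 1 or OICR replicate 2, or with a pseudocount of 10.

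The Rhox genes, a cluster of homeobox genes on the X chromosome expressed in germ cells and placenta, held several called members. Of 19 tested, 6 were called lower (1.29% of all genes) and 0 higher, with a median of -1.41 and a range from -4.47 to 1.12. Summed over the family, the compounds overlapped, at 1978 and 1566 with Bromosporine against 1798 and 2388 with OICR. Rhox2b had 40 and 20 under Bromosporine, and 87 and 118 under OICR (-1.80, SE 0.39, limma adjusted p 0.031). Rhox2f was listed at 0 in both Bromosporine libraries and at 18 and 25 with OICR, and it was the 1 family member whose call held without any 1 library. Rhox2c, Rhox2g, Rhox2h and Rhox4g were the other called members, at 0 to 20 with Bromosporine and 15 to 93 with OICR. The called members have 65.8% to 96% of their 31-base stretches in common with other genes, so they are not independent counts. Rhox2b lost its call without Bromosporine replicate 2, OICR replicate 1 or OICR replicate 2, with differences of -2.02 to -1.32. Rhox2c, Rhox2g, Rhox2h and Rhox4g each lost their call without at least 2 of the 4 libraries, Rhox2g and Rhox2h also with a pseudocount of 10, and Rhox2c with a variance prior without trend.

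Among the 17 genes higher with Bromosporine were a WNT ligand, a Notch modifier and a chromatin remodeller. Wnt7b (mm10 chr15:85535437-85582473, minus strand), a secreted WNT ligand, had 286 and 190 under Bromosporine, and 32 and 48 under OICR, with 101 and 89 in NC (5.82-fold, log2 difference 2.54, SE 0.53, limma adjusted p 0.027). Nedd9, a scaffold of focal adhesions, was at 128 and 94 against 19 and 13 (6.62-fold, 2.73, SE 0.51, limma adjusted p 0.014). Lfng, a glycosyltransferase that modifies Notch receptors, was at 165 and 110 against 47 and 36 (3.22-fold, 1.69, SE 0.38, limma adjusted p 0.0403). The libraries of the compounds did not overlap for these 3, yet all 4 lay inside the range of the other 18 for Wnt7b and Nedd9.

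Chd3, an ATPase of the NuRD chromatin remodelling complex, had 1276 and 1116 under Bromosporine, and 540 and 376 under OICR (2.64-fold, log2 difference 1.40, SE 0.18, limma adjusted p 0.00191). Both Bromosporine libraries lay above the other 18 (506 to 1050) and 1 OICR library lay below them. Chd3 was, with the predicted gene Gm3629, the gene that stayed called higher without any 1 library. Sp8, a zinc finger transcription factor of limb and brain development, was at 163 and 131 against 55 and 66 (1.26, SE 0.26, limma adjusted p 0.0268). Atxn1l, a partner of the repressor Capicua, was at 325 and 212 against 98 and 53 (1.85, SE 0.41, limma adjusted p 0.0342).

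The remaining named higher genes were Camkv, Clgn, Ldlrad3, Ushbp1 and Wscd1, which differed by 1.03 to 1.17, and Serpinh1. Ushbp1 was at 630 and 541 with Bromosporine, above all 18 other libraries (83 to 332), and at 294 and 251 with OICR. Without Bromosporine replicate 2, Wnt7b (2.84) and Lfng (1.98) lost their calls and Nedd9 (2.95), Sp8 (1.42) and Atxn1l (2.16) kept theirs. Without any 1 of the other 3 libraries none of these 5 was called, with differences of 2.25 to 2.83 for Wnt7b, 1.40 to 1.88 for Lfng, 2.47 to 2.98 for Nedd9, 1.11 to 1.39 for Sp8 and 1.41 to 2.29 for Atxn1l. Camkv, Clgn and Ushbp1 lost their calls without Bromosporine replicate 1 (0.78, 0.74 and 0.99), OICR replicate 1 (1.30, 1.37 and 1.21) or OICR replicate 2 (1.03, 0.90 and 0.99). Ldlrad3 lost its call without Bromosporine replicate 1 (0.88) or OICR replicate 2 (1.01), and Wscd1 without Bromosporine replicate 1 (0.96) or OICR replicate 1 (0.77). Clgn was also lost with a pseudocount of 10, with rescaling by median ratios and with a prior without trend, and Wscd1 with a pseudocount of 10. The plot of values by library shows these genes beside the lower ones.

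**Figure D2:**
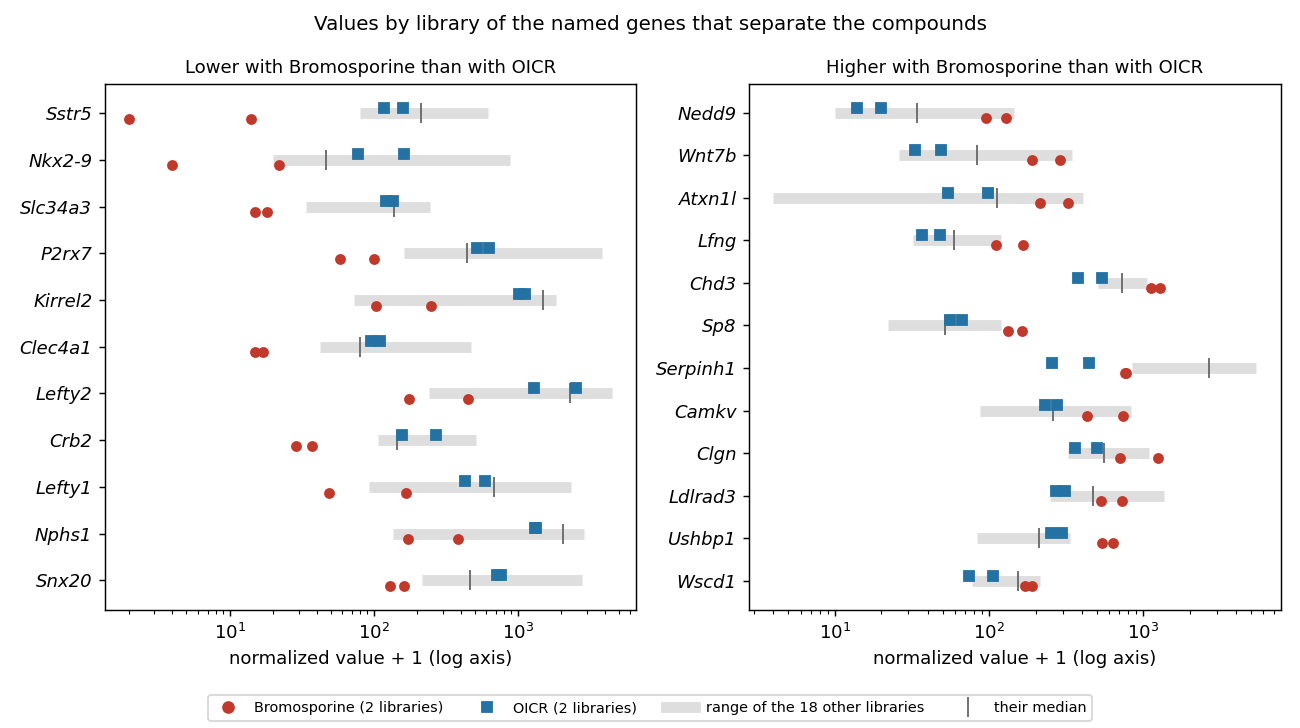
Normalized values plus 1 on a log axis for 11 lower and 12 higher named genes, those with the largest called differences among genes above 0 in all 4 libraries and with a group mean of at least 100, with 2 Bromosporine libraries (red circles), 2 OICR libraries (blue squares), and the range (grey bar) and median (tick) of the 18 other libraries. For most lower genes the OICR points lie within the grey bar and the Bromosporine points at or below its lower end, as for Sstr5 (1 and 13 against 117 and 158), while Serpinh1 on the right has all 4 points below the bar.

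Serpinh1 was the gene that both compounds lowered against the other groups and that also differed between them. It encodes HSP47, the collagen chaperone of the endoplasmic reticulum, and lies at mm10 chr7:99345376-99353239 on the minus strand. Values were 769 and 759 with Bromosporine and 255 and 441 with OICR, against 4328 and 3096 in NC and 847 to 5395 over the 18 others. OICR was thus lowest, Bromosporine next, and neither overlapped any other library. The difference from the other groups was -1.61 for Bromosporine (SE 0.20, limma adjusted p 0.000221) and -2.79 for OICR (SE 0.20, limma adjusted p 1.32e-05). Directly, Serpinh1 was 2.27-fold higher with Bromosporine (log2 difference 1.19, SE 0.27, limma adjusted p 0.0407), with 1.59 between the libraries numbered 1 and 0.78 between those numbered 2. The direct call was lost without Bromosporine replicate 1 (1.18), Bromosporine replicate 2 (1.19) or OICR replicate 1 (0.79), and with a variance prior without trend. Valproate (941 and 847) and DZNep (1312 and 959) came next.

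Of 18 tested genes for collagen biosynthesis, Serpinh1 was the 1 called higher and Pcolce the 1 called lower, with a median of -0.13. Pcolce, an enhancer of procollagen cleavage, had 1243 and 1971 under Bromosporine, and 3498 and 2863 under OICR (-1.02, SE 0.20, limma adjusted p 0.0184), and lost its call without Bromosporine replicate 1 (-0.68), OICR replicate 1 (-0.87) or OICR replicate 2 (-1.16). Of 14 tested serpin genes, Serpine2, an inhibitor of thrombin-like proteases, was called lower at 140 and 153 against 284 and 329 (-1.06, SE 0.21, limma adjusted p 0.0189), a call that did not hold without any 1 of the 4 libraries (-0.95 to -1.16). Serpinf1, the secreted factor PEDF, was at 4 and 17 against 22 and 59, with 229 and 214 in NC. Serpinf1 did not differ past the threshold (-1.97, SE 0.61, limma adjusted p 0.151), and was called without Bromosporine replicate 2 (-2.89) or with the replicate number in the fit.

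Other named genes lower with both compounds had all 4 libraries below the other 18, which the rule for naming required, and no call between the compounds. Of the 34 genes lower with both, 12 met the whole rule. Synj2, a phosphoinositide phosphatase, had 75 and 58 under Bromosporine, and 107 and 72 under OICR, against 169 to 493 in the others (-2.22 and -1.81 against the other groups, SE 0.20 each, limma adjusted p 3.03e-05 and 0.0011). The Synj2 difference between the compounds was -0.41 (SE 0.27, limma adjusted p 0.667). Ggt1, the enzyme that starts glutathione breakdown outside the cell, was at 142 and 164 and at 216 and 190, against 321 to 1695 (-2.12 and -1.71, limma adjusted p 6.85e-05 and 0.00282). Myh14, a non-muscle myosin heavy chain, was at 208 and 239 and at 414 and 292, against 428 to 1880 (-2.09 and -1.45, limma adjusted p 6.85e-06 and 0.000909).

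Ece1, the endothelin-converting enzyme, had 165 and 140 under Bromosporine, and 179 and 155 under OICR, against 295 to 1108 in the others. Pdpn, the membrane glycoprotein podoplanin, was at 78 and 51 and at 54 and 40, against 112 to 321. Padi3, a peptidylarginine deiminase, was at 57 and 30 and at 90 and 54, against 106 to 374, and Oaf was at 55 and 36 and at 63 and 61, against 108 to 425. Gli1, the transcription factor and target gene of Hedgehog signalling, was named after its values were seen and was at 199 and 193 and at 185 and 142, against 307 to 858. Between the compounds these 5 differed by -0.74 (Padi3) to 0.43 (Pdpn), and none was called. Of the 34 genes, 31 were above 0 in all 4 libraries, and among these the OICR mean was the higher one for 23 and the Bromosporine mean for 8.

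**Figure D3:**
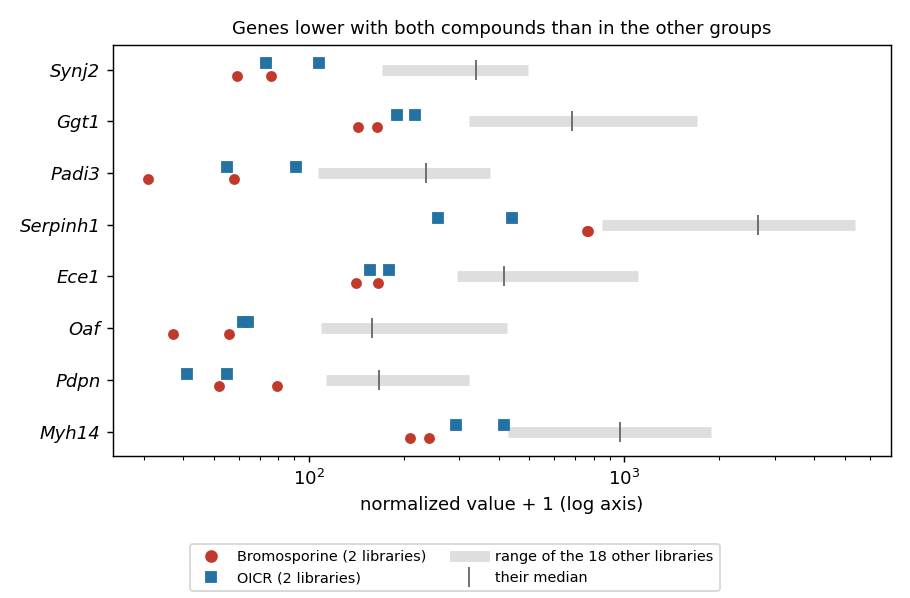
Normalized values plus 1 on a log axis for the 8 named genes lower with both compounds, with 2 Bromosporine libraries (red circles), 2 OICR libraries (blue squares), and the range (grey bar) and median (tick) of the 18 other libraries. All 4 points lie left of the grey bar for every gene, which the rule for naming them required. For Serpinh1 alone among them the compounds were called different (769 and 759 against 255 and 441).

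The count of 34 rests on the OICR libraries: it was 15 without OICR replicate 1 and 3 without OICR replicate 2. Without OICR replicate 2 the OICR calls of Synj2 (-1.53), Ggt1 (-1.62), Myh14 (-1.20), Ece1 (-1.37), Oaf (-1.44), Padi3 (-1.28) and Pdpn (-1.68) were lost, while that of Serpinh1 held. Without OICR replicate 1 those of Oaf (-1.49), Padi3 (-2.01) and Pdpn (-2.11) were lost. Pdpn also lost its Bromosporine call without Bromosporine replicate 1 (-1.76) or replicate 2 (-1.16). With NC alone as the reference, the OICR calls of Oaf (-1.38), Padi3 (-1.69) and Pdpn (-1.80) and the Bromosporine call of Pdpn (-1.37) were lost.

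The 5 genes called higher with both were Utf1, Hunk, Adamts7, Gm11274 and 4930481B07Rik. Utf1, a chromatin-bound factor of pluripotent cells, had 4117 and 3935 under Bromosporine, and 3309 and 3915 under OICR, with 1283 and 1467 in NC (1.21 and 1.05 against the other groups, SE 0.17 each, limma adjusted p 0.000459 and 0.0103). DZNep (4622 and 5749) and Valproate (3558 and 3309) were as high, so both compounds lay inside the range of the others. Hunk, a protein kinase, was at 868 and 859 and at 1126 and 1185, with 329 and 308 in NC. Adamts7, a secreted metalloprotease, was at 531 and 607 and at 507 and 543, with 185 and 198 in NC. None of the 5 differed between the compounds past the threshold, and without either OICR library the count was 0.

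Brd2, Brd3 and the genes for elongation factors and the WDR5 complex were not called between the compounds. Brd2 differed by 0.15 (SE 0.15) and Brd3 by -0.03 (SE 0.14), with limma adjusted p of 0.832 and 1. Of 27 tested P-TEFb and elongation genes, 0 were called (1.39% of all genes), with a median of 0.02. At that share, lists of this size hold few or no called genes, so a count of 0 says little about them. Hexim1, an inhibitor of P-TEFb, had 1519 and 2039 under Bromosporine, and 1803 and 2310 under OICR. Myc was at 36 and 89 against 28 and 54 (0.53, SE 0.95, limma adjusted p 0.946), and the linker histone H1f0 was at 2459 and 3607 against 2623 and 3498. Of 25 tested WDR5 and MLL complex genes, 0 were called (1.39% of all genes), with a median of -0.03. Wdr5 itself was at 13538 and 12808 under Bromosporine, and at 16767 in both OICR libraries, above all 18 others (10116 to 14626), but the difference of -0.35 (SE 0.12, limma adjusted p 0.193) missed the threshold.

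The defining markers of embryonic stem cells were present in all 4 libraries. Pou5f1 was at 30833 in both Bromosporine libraries and at 35317 and 39262 with OICR, and Nanog at 59405 and 53841 against 49312 and 67576. Of 18 tested naive pluripotency genes, 0 were called (1.39% of all genes), with a median of -0.09. The 9 tested fibroblast or feeder markers summed to 801 and 736 with Bromosporine, 773 and 1201 with OICR, and 154 to 2165 in the others, with Col1a1 the 1 called. Dnmt3l, a cofactor of DNA methyltransferases, was at 160 and 311 against 60 and 138 (1.28, SE 0.92, limma adjusted p 0.699).

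Several lists without a call had medians away from that of all genes. The 22 tested clustered histone genes had a median of 0.64, with 3 below 0. Against the other groups, 5 of these histone genes were called higher with Bromosporine (0.955% of all genes) and 0 with OICR (0.0695% of all genes). At the share for OICR, a list of this size would seldom hold a called gene. Most transcripts of these genes lack a poly(A) tail, and the RNA was selected for it. Cytosolic ribosomal protein genes had a median of 0.20 over 43 tested, and Rpl7, which was at 92251 and 123367 with Bromosporine and 59405 and 53841 with OICR, was called lower with OICR against the other groups (-1.01, SE 0.19, limma adjusted p 0.0228) but not directly (limma adjusted p 0.0975). For Rpl7, 45.2% of the 31-base stretches are found in other transcripts too. The plot of list members shows these medians.

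**Figure D4:**
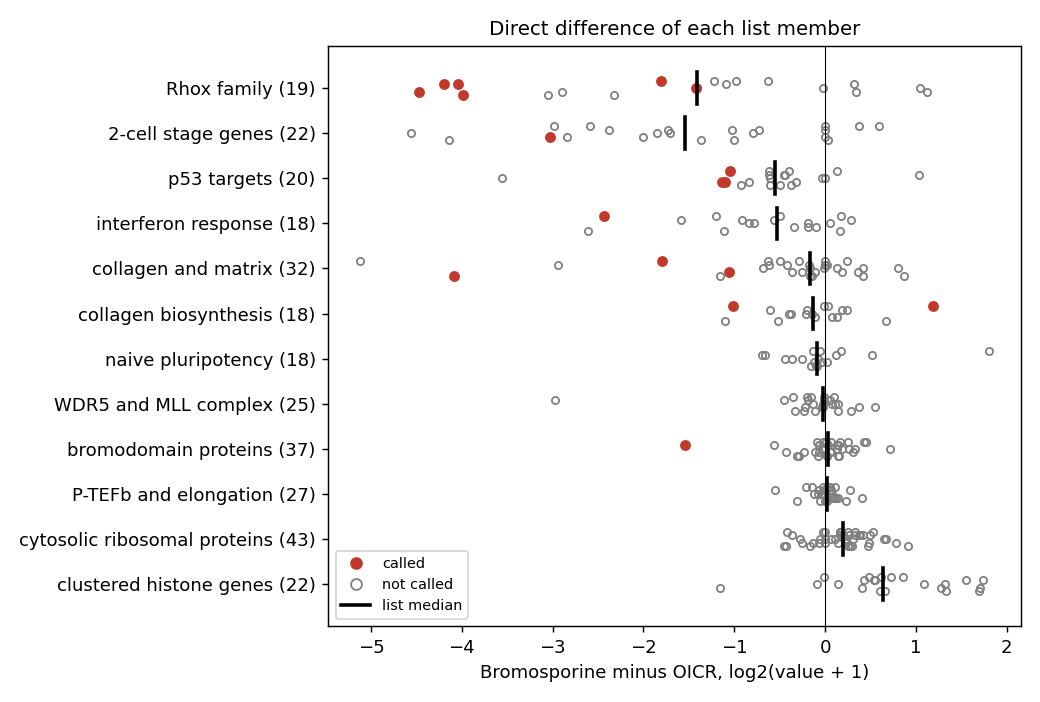
Difference between Bromosporine and OICR on the log2(value + 1) scale for each tested member of 12 gene groups, with called members filled red, others open, and the group median as a black bar (number tested in parentheses). The Rhox family, the 2-cell genes and the p53 targets have medians of -1.41, -1.54 and -0.55, while the WDR5 and MLL, bromodomain and P-TEFb lists sit at -0.03 to 0.03.

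The largest fitted differences belonged to genes listed at 0 with 1 compound, for which no fold is given. Adgrb3, an adhesion receptor of the brain, was listed at 0 in both Bromosporine libraries and at 645 and 819 with OICR, and 1 Chaetocin library was also at 0 beside its replicate at 635. Rit2, a neuronal GTPase, was listed at 0 in both and at 568 and 907 with OICR, and 1 CPTH2 library was at 1 beside its replicate at 877. Gm37676 was at 510 and 687 with OICR and listed at 0 in all of the other 20 libraries, and so was Gm24909, at 516 and 486. For Gm37676, 100% of the 31-base stretches are found elsewhere among transcripts, and Nucks1 has an exon over it on the other strand, so reads could be credited to either. 9330159F19Rik had 18 and 20 under Bromosporine, and 461 and 645 under OICR, but NC was at 17 and 20 and the others ran from 11 to 742. Adgrb3, Rit2 and 9330159F19Rik were not called without any 1 of the 4 libraries.

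The longest transcripts of the 223 lower genes had a median GC content of 52% and a median length of 2911 bases, and those of the 17 higher genes 51.9% and 3277 bases. All genes tested had 48.7% and 3142 bases. Of the lower genes 98.2% had a transcript in the annotation. Whether the GC content plays a part in the differences was not tested.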

How the data were processed

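Poly(A)-selected RNA from E14 cells was sequenced in 22 libraries (11 groups of 2). The labels' processing notes name bcl2fastq, Bowtie2 2.2.5, RSEM and build mm10, and the study's methods, which do not mention the compounds, state EDASeq normalization. Since every library of the deposited table has the same median and maximum, its whole numbers were taken as values that the authors normalized and rounded, and were treated as a score and not as raw counts. Depth cannot be read from them, since library totals ran from 38403767 to 38419709, and no count model or counting interval was used. A deposited table of the authors' group means was not used, and 0 columns lacked a sample.

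Testing was limited to the 17275 of 18487 genes that reached 10 in 2 or more libraries. All 22 libraries entered 1 limma 3.58.1 fit (R 4.3.3) on log2(value + 1) with a mean-variance trend and 11 residual degrees of freedom. Contrasts were Bromosporine minus OICR, and each compound minus the mean of the other 9 groups. These differences understate the change of low genes. P-values were adjusted by Benjamini-Hochberg over all genes tested. The script was tested on simulated data.

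Named genes were the 12 largest called differences per direction and the 8 largest shared ones, among established symbols above 0 in all 4 libraries, not overlapping, with a larger group mean of at least 100. The called members of the lists and a few genes named whatever their result were added. Other uncalled list members, such as Nodal, Tdgf1, Foxh1, Pmaip1, Rpl7 and Zscan4d, were added after values were seen. Genes described as chosen after their values were seen fall outside this. A few results are not reported here. The members and lists were chosen with earlier results of these data known. Alternatives were another pseudocount, filter, scaling, variance prior, reference or set of libraries, and a replicate term. Positions came from GENCODE M21, where 16768 tested genes (97.1%) had 1 position, and promoters from RefSeq (GRCm38.p6). Stretches of 31 bases from the longest transcript of each named gene were searched in all transcripts of other genes, on either strand. This used Python 3.11.15.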

Additional observations from a re-analysis of the deposited data

Results flagged for a closer look

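The effects of Bromosporine and OICR against the same 18 reference libraries differed, by the direct limma contrast of the compounds, for 240 genes. The 2 libraries of each compound did not overlap for any of them. For Serpinh1, which was lower than the other groups with both compounds, the difference between the effects was 1.19 on the log2 scale (SE 0.27, limma adjusted p 0.0407). Serpinh1 was called without OICR replicate 2 (1.58) and not without any 1 of the other 3 libraries (0.79 to 1.19).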

How the results depend on the processing

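Leaving out 1 library moved the direct count of 240 to between 79 and 262, its lower genes (223) to between 73 and 241 and its higher genes (17) to between 3 and 22. The 950 genes called for Bromosporine against the other groups became 452 to 704, the 67 for OICR 11 to 40, those lower with both (34) 3 to 36 and those higher with both (5) 0 to 4. With only the 4 libraries, 63 genes were called directly, 43 of them lower, so that 68.3% were lower against 92.92% in the fit with all libraries. Without OICR replicate 1 the share was 79.4%. With NC alone as the reference, 577 genes were called for Bromosporine and 8 were higher with both. A reference without DZNep and Valproate gave 116 genes for OICR, 60 lower with both and 10 higher with both. Genes higher with both numbered 8 among genes above 0 in all 22 libraries and 8 without the trend. The cause of these moves was not tested, beyond the smaller number of libraries in the fits that leave some out. A pseudocount of 10, no filter and rescaling kept 175, 236 and 238 of the 240 calls. No named result reversed. For the called genes, the lack of overlap fixed this in the fits that left out a library. Of 81 named genes called directly, 4 were called under every alternative that tested them. These were Gm24909, Gm37676, Gm3629 and Rhox2f, each at 0 in both libraries of 1 compound. Gm37676 (100%), Gm3629 (92.4%) and Rhox2f (72.4%) share most of their 31-base stretches with other genes.

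The labels do not say what libraries with the same replicate number have in common beyond that number. Their deviations from the group means correlated at 0.0535 to 0.298 over 55 pairs of groups, above 0.1 in 51, and at 0.125 for Bromosporine and OICR. With the replicate number as a block, 556 genes were called directly (475 lower, 81 higher), 240 for OICR against the others, 122 lower with both and 18 higher with both. Nodal, Nog, Pmaip1, Serpinf1 and Zscan4c, not called otherwise with all libraries, were called directly under the block. Each group had 2 libraries and depth is unknown, so small differences and values near 0 are the least certain.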
